A study of Mus musculus with 32 samples.

Results

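Bulk tumour tissue resected at day 9 was compared with bulk tissue of tumours resected at 600 mm3, as a stage effect over both treatments and in each treatment arm. The comparison rests on the 8 samples of 32 whose titles give day 9 or 600 mm3, and all other samples were of larger tumours. The cells were 4T1-Luc, mouse mammary carcinoma cells that carry luciferase, grown in Balb/C females, 8 weeks old when the cells were placed in a mammary fat pad, the third. Dosing began after 1 week of tumour establishment, with sunitinib at 40 mg/kg or with its vehicle of PBS and DMSO. Each stage holds 2 sunitinib and 2 vehicle tumours, each from its own mouse, numbered 1 and 2 at day 9 and 3 and 4 at 600 mm3. The labels call the 4 sunitinib tumours sensitive to the drug up to day 8. They give no volume for the day 9 tumours and no day of resection for the 600 mm3 tumours, so that time and size are not separate here. All tumours came from 1 cell line, and bulk means the digested tissue that remained after endothelial cells had been drawn off with beads carrying an antibody against PECAM-1.

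A transplanted mammary carcinoma is a mixture of carcinoma cells with fibroblasts, vessels and leukocytes, and tissue taken with it can hold fat and muscle of the site. Outgrowth of such a tumour is accompanied by remodelling of its matrix, its vessels and its oxygen supply. Sunitinib is an oral inhibitor of several receptor tyrosine kinases, among them the receptors for VEGF and PDGF, KIT and CSF1R. In bulk RNA, fewer cells of a type and less RNA per cell cannot be told apart.

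Levels below are log2 of the processed array signal minus the 75th percentile of the same array, and a stage difference is the 600 mm3 level minus the day 9 level on that scale. All 8 arrays shared 1 slide and 1 scan. Day 9 arrays lay in rows 1 and 2 and 600 mm3 arrays in rows 3 and 4, so that row and stage cannot be told apart, and neither can slide column and treatment. The share of spots well above background, a call of the scanner software, was 68.0% to 74.7% at day 9 and 69.8% to 80.1% at 600 mm3, a difference of 5.12 percentage points (exact two-sided permutation test, p = 0.114; the smallest p this design allows is 0.0286). All 17 tumour epithelial markers tested were well above background on all 8 arrays, and so was Pecam1, the target of the bead selection. Precision is limited by how few arrays there are.

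Tumours at 600 mm3 differed from day 9 tumours in 288 of 17442 genes tested (1.65%), of which 111 rose (0.636%) and 177 fell (1.01%) at an adjusted p under 0.05 in limma. Among the largest rises were those of Hormad1, a meiotic chromosome protein, of Acot1, an acyl-CoA thioesterase, and of the granzymes Gzmg and Gzmf. Many of the largest falls were of skeletal muscle genes. The median difference over all genes was 0.08, and 3394 genes had an unadjusted p under 0.05. Rises made up 38.5% of the calls, and 24.7% after a background correction by normexp. The 4 arrays of one stage did not overlap those of the other for 2199 genes (12.6%), of which 1495 were higher (8.57%) and 704 lower (4.04%) at 600 mm3, and 274 of the 288 called genes were among them.

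The number of calls depended on each array. With 1 array left out, between 2 and 88 genes rose and between 1 and 130 fell. Of the 288 called genes, 142 were still called without day 9 vehicle mouse 1, 70 without day 9 sunitinib mouse 1, 46 without day 9 sunitinib mouse 2 and 38 without day 9 vehicle mouse 2. Without a 600 mm3 array the numbers were 30 for vehicle mouse 3, 18 for sunitinib mouse 4, 7 for sunitinib mouse 3 and 3 for vehicle mouse 4. Of the 44 called genes among those chosen to be named, Hormad1 and Acot1 were called in all 8 of these fits, and 17 genes in none of them. Every other one of the 44 lost its call in at least 1 of the fits.

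Hormad1 encodes a HORMA domain protein of the meiotic chromosome axis whose expression in tumours is a known example of a germ-cell gene switched on in cancer. Its level was -7.94 and -8.45 in the day 9 sunitinib tumours and -7.78 and -7.99 in the day 9 vehicle tumours. At 600 mm3 it was -2.47 and -2.72 with sunitinib and -0.50 and -0.84 with vehicle. No day 9 array had the probe well above background, while all 4 of the 600 mm3 arrays did. Hormad1 thus entered the test only through the stage where it is high, and its fitted difference includes day 9 values below detection. The measured means were -8.04 ± 0.29 (SD, n = 4) and -1.63 ± 1.12 (SD, n = 4), the fitted difference was 6.41 (SE 0.34, adjusted p = 0.00134), and the rise was at least 22.3-fold when day 9 is set to the lowest signal called above background. A second, dimmer Hormad1 probe differed by 1.09 (adjusted p = 0.224). Hormad1 rose in both arms, at least 42.8-fold with vehicle and at least 11.6-fold with sunitinib. With day 9 below background in both arms, the size of a difference between them was not measured.

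Acot1, a cytosolic enzyme that releases fatty acids from acyl-CoA, rose 13.6-fold. It stood at -1.87 and -2.37 with sunitinib and -1.41 and -1.74 with vehicle at day 9. At 600 mm3 it stood at 1.41 and 1.75 with sunitinib and 1.93 and 2.59 with vehicle, with no overlap between stages. The difference was 3.77 (SE 0.22, adjusted p = 0.00134). Its neighbours and close relatives on chromosome 12 were looked at after these values were seen: Acot2 differed by 0.63, Acot3 by -0.59, Acot4 by -0.90, Acot5 by -0.11 and Acot6 by 0.54, and none was called. Cross-hybridisation between these similar genes was not tested.

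Granzymes are serine proteases stored in the granules of cytotoxic lymphocytes. Gzmg stood between -4.97 and -2.22 on the day 9 arrays, and at 0.70 and -1.38 with sunitinib and 1.74 and 0.48 with vehicle at 600 mm3 (difference 4.06, SE 0.71, adjusted p = 0.0424). Gzmf stood between -3.94 and -2.33 at day 9 and between -0.94 and 0.68 at 600 mm3 (difference 3.03, SE 0.43, adjusted p = 0.0311). Each gene was higher on every 600 mm3 array than on any day 9 array, and each was still called only without day 9 vehicle mouse 1 when an array was left out. The other members of this cluster on chromosome 14, chosen after their values were seen, were not called: Gzmb differed by 0.59, Gzmc by 0.97, Gzmd by 1.68 and Gzme by 0.78. These genes are close copies, and cross-hybridisation was not tested. Of 19 T and NK cell markers tested none was called, with a median difference of -0.50, and the mean level of the list ran from -0.86 to 0.18 at day 9 and from -1.50 to 0.07 at 600 mm3; its part in the granzyme values was not tested.

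Zfp979, Bspry and Rerg were among the other leading rises. Zfp979, which encodes a zinc finger protein, rose from between -5.01 and -3.25 at day 9 to between -0.56 and 0.92 (difference 4.52, adjusted p = 0.0209), and its second probe was called too, at 3.02. Bspry, a B-box and SPRY domain protein, went from between -3.50 and -2.01 to between -0.85 and -0.03 (difference 2.40, adjusted p = 0.0323). Gngt1, the gamma subunit of rod transducin, was above background on 1 of 4 day 9 arrays and rose by 5.28 (SE 0.84, adjusted p = 0.0373). Rerg, a RAS-like growth inhibitor induced by oestrogen, rose by 2.67 (adjusted p = 0.0188), the keratin Krt23 by 2.73 (adjusted p = 0.0491) and Grtp1, a TBC domain protein, by 2.30 (adjusted p = 0.0491). Arfgef3 and Krtap31-2 were above background on no day 9 array, so that they entered the test only through the stage where they are high. Their means were -7.56 and -7.21 at day 9 and -5.01 and -4.76 at 600 mm3, which gives rises of at least 2.15-fold and 2.56-fold.

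**Figure D1:**
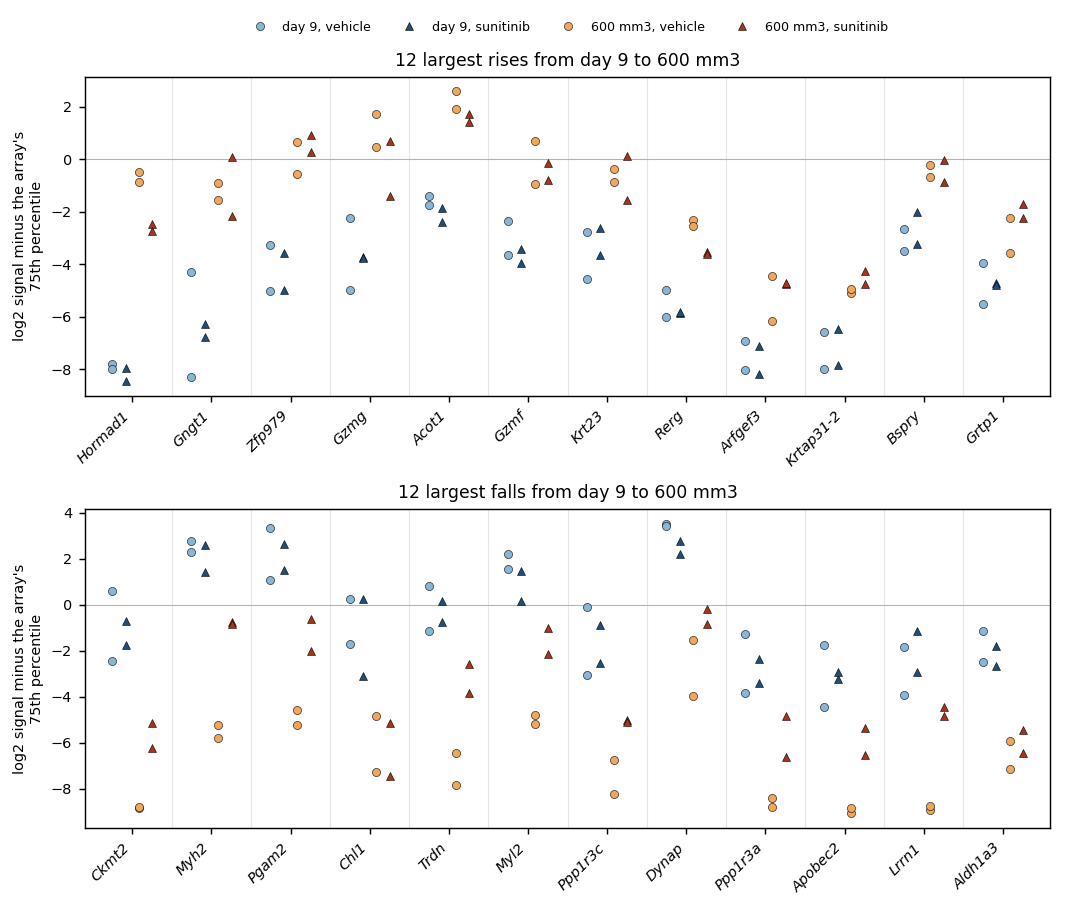
Levels (log2 signal minus the array's 75th percentile) of the 12 genes with the largest rises and the 12 with the largest falls between stages, among called genes detected on all 4 arrays of the higher stage, 1 point per array, with stage and treatment marked. The 4 arrays of a stage do not overlap those of the other for any gene shown; Hormad1 is near -8 at day 9 on all arrays, and the muscle genes Ckmt2 and Myh2 are lowest on the 600 mm3 vehicle arrays.

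Stc1, which encodes stanniocalcin, a secreted glycoprotein induced by low oxygen, was the only called member of a list of 26 tested hypoxia response genes. It stood at -2.58 and -2.54 with sunitinib and -3.05 and -2.94 with vehicle at day 9, and at -0.80 and -0.76 with sunitinib and -0.80 and -0.55 with vehicle at 600 mm3. The rise was 4.15-fold (difference 2.05, SE 0.17, adjusted p = 0.00714). Stc1 rose in the vehicle arm by 2.32 and in the sunitinib arm by 1.78, each called, and its stage call was lost in 1 of 8 fits, without 600 mm3 vehicle mouse 4 (adjusted p = 0.0539). In the hypoxia list 18 of 26 differences were negative, the median was -0.24, and Car9, a carbonic anhydrase widely used as a hypoxia marker, differed by 0.30 (adjusted p = 0.616). Car12, another carbonic anhydrase, was higher on every 600 mm3 array but not called (difference 0.66, adjusted p = 0.133). That order held for 2 of 26 genes of the list, a share near the 8.57% of all genes. Vegfa, the main vascular growth factor of the list, differed by -0.89 (adjusted p = 0.14). Of 20 glycolysis genes none was called, and their median was -0.01, which turns positive under normexp, quantile scaling and the mean of probes.

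Cell cycle genes gave no call between stages. Of 33 tested members 0 were called by limma and 26 differences were positive, with a median of 0.12 beside 0.08 over all genes. Differences ranged from -0.53 to 0.66, and the smallest adjusted p was 0.126. Mki67, which encodes the proliferation marker Ki-67, lay between 3.64 and 4.55 at day 9 and between 3.73 and 4.38 at 600 mm3 (difference 0.02, SE 0.25, adjusted p = 0.981; its sign turns under quantile scaling and in the deposited table). The largest differences of the list were those of the replication helicase subunits Mcm6, at 0.65, and Mcm7, at 0.66, whose arrays did not overlap between stages. In the list 3 of 33 genes were higher without overlap, a share near the 8.57% of all genes. Cdkn1a, the p21 inhibitor of cyclin-dependent kinases, fell 3.19-fold. It stood between 1.49 and 2.16 at day 9 and between -0.01 and 0.29 at 600 mm3 (difference -1.67, SE 0.21, adjusted p = 0.0281), although a dimmer probe of the gene differed by 0.02. It was the only called gene of 13 tested p53 targets, whose median was -0.18.

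Skeletal muscle genes were lower at 600 mm3. All 15 tested members of the muscle list had every 600 mm3 array below every day 9 array, with a median difference of -4.67 (the background for lower without overlap is 4.04%), but 1 was called in the stage fit, Myh2, a fast myosin heavy chain. Myh2 stood at 2.61 and 1.41 with sunitinib and 2.28 and 2.74 with vehicle at day 9, and at -0.76 and -0.83 with sunitinib and -5.80 and -5.24 with vehicle at 600 mm3 (difference -5.42, SE 0.98, adjusted p = 0.0465). Both arms were thus lower at 600 mm3, and the vehicle arrays were the lowest. The same order held for the mean level of the list, which was 3.07 and 2.09 with sunitinib and 2.24 and 3.97 with vehicle at day 9, then 0.92 and 0.07 with sunitinib and -3.69 and -4.11 with vehicle. The stage call of Myh2 was lost in every fit that left out 1 array.

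Several of the other large falls were of muscle genes outside that list. Ckmt2, the sarcomeric mitochondrial creatine kinase, stood between -2.43 and 0.58 at day 9 and at -6.21 and -5.14 with sunitinib and -8.84 and -8.79 with vehicle at 600 mm3 (difference -6.17, SE 0.87, adjusted p = 0.0311). Pgam2, the muscle form of phosphoglycerate mutase, fell by 5.24 (SE 0.86, adjusted p = 0.0392), Trdn, the triadin of the calcium release complex, fell by 4.95 (SE 0.89, adjusted p = 0.0465), and Myl2, a regulatory myosin light chain, fell by 4.62 (SE 0.88, adjusted p = 0.0496). Ppp1r3c and Ppp1r3a, which target protein phosphatase to glycogen, fell by 4.61 and 4.42, and Apobec2, a muscle member of the cytidine deaminase family, by 4.37. Lrrn1, a leucine-rich repeat membrane protein, fell by 4.25. On the 600 mm3 vehicle arrays Ckmt2, Ppp1r3c, Ppp1r3a, Apobec2 and Lrrn1 were not well above background, so that their stage differences include values below detection. Trdn was above background on only 1 of those vehicle arrays, so that the same holds for it. The calls of Pgam2, Trdn, Myl2, Ppp1r3c, Ppp1r3a, Apobec2 and Lrrn1 were lost with no filter. Those of Trdn, Myl2 and Ppp1r3a were also lost under quantile scaling and in a fit of stage alone, and those of Apobec2 and Lrrn1 in the latter. The fall of Ckmt2 in the vehicle arm was at least 60.7-fold.

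Aldh1a3, Chl1 and Dynap also fell. Aldh1a3, a dehydrogenase that makes retinoic acid, stood at -2.65 and -1.78 with sunitinib and -2.49 and -1.16 with vehicle at day 9, and at -6.43 and -5.44 with sunitinib and -5.90 and -7.15 with vehicle at 600 mm3 (difference -4.21, SE 0.46, adjusted p = 0.0209). It was called in 6 of 8 fits with an array left out, and lost its call without 600 mm3 sunitinib mouse 3 or vehicle mouse 4. Chl1, a neural cell adhesion molecule of the L1 family, fell by 5.09 (SE 0.93, adjusted p = 0.0472), with a second probe called at -4.40. Chl1 was above background on 2 of 4 arrays at 600 mm3, so that its fall includes values below detection. The call of Chl1 was lost under quantile scaling and with no filter. Dynap fell from between 2.18 and 3.52 to between -3.96 and -0.18 (difference -4.59, adjusted p = 0.0392).

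Fibroblast and matrix genes had mostly lower levels at 600 mm3, with few calls. Of 16 fibroblast genes 15 differences were negative and 2 were called lower, beside 1.01% of all genes, and the median was -1.45. Pi16, a marker of resting adventitial fibroblasts, fell from between 1.68 and 3.23 to between -1.13 and 0.63 (difference -2.68, SE 0.46, adjusted p = 0.0421), and Fbln1, which encodes the matrix protein fibulin 1, fell by 1.71 (adjusted p = 0.0496; a second probe, at -1.36, was not called). The call of Fbln1 was lost under quantile and median scaling, with no filter, with the mean of probes and in a fit of stage alone. Of 21 fibrillar collagen and matrix assembly genes 20 differences were negative, with a median of -1.37. Tnc, tenascin C, was the only one called: its levels were 0.73 and 0.09 with sunitinib and 0.58 and 1.80 with vehicle at day 9, and -3.55 and -1.92 with sunitinib and -1.07 and -1.79 with vehicle at 600 mm3 (difference -2.88, SE 0.43, adjusted p = 0.0336; second probe -2.54, also called). Col1a1, Col1a2 and Col3a1, the chains of the main fibrillar collagens, differed by -1.63, -1.46 and -1.60, and Lox, a collagen crosslinking enzyme, by -2.51, without a call (adjusted p from 0.0551 to 0.133). The mean level of the collagen list was lowest on the 600 mm3 sunitinib arrays, at 0.72 and 1.55, and day 9 sunitinib mouse 1, at 1.88, lay among the 600 mm3 arrays. Pdgfra, which marks fibroblasts, differed by 0.03 (adjusted p = 0.959; its sign turns under quantile scaling).

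Of 20 matrix proteases and inhibitors 3 fell, beside 1.01% of all genes, and 0 rose, with a median of -0.88. Plau, the urokinase plasminogen activator, fell from between 4.06 and 4.92 to between 2.67 and 3.27 (difference -1.39, SE 0.24, adjusted p = 0.0421). Its ranges did not overlap between stages. Timp3, a metalloproteinase inhibitor, fell by 1.96 (SE 0.35, adjusted p = 0.0465), with 600 mm3 vehicle mouse 3, at 2.32, inside the day 9 range. Members of the matrix metalloproteinase family itself gave no call: Mmp2 differed by -0.89, Mmp9 by -0.87, Mmp3 by 0.00 and Mmp14 by 0.23. The call of Plau was lost in every fit that left out 1 array, and that of Timp3 was kept only without day 9 vehicle mouse 1.

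Among 25 inflammatory cytokines and chemokines 2 fell, beside 1.01% of all genes. Il1a, the alpha form of interleukin 1, stood at -0.29 and 0.73 with sunitinib and -0.28 and 0.31 with vehicle at day 9, and at -3.16 and -2.37 with sunitinib and -2.46 and -2.01 with vehicle at 600 mm3 (difference -2.62, SE 0.32, adjusted p = 0.0281). Il11, a cytokine of the interleukin 6 family, fell by 2.12 (SE 0.35, adjusted p = 0.0392). Several further secreted factors fell: Fgf21, a stress hormone, by 2.63 (adjusted p = 0.0421), Gdnf, a neurotrophic ligand of the RET receptor, by 2.30 (SE 0.33, adjusted p = 0.0323), and Wnt11 by 1.78 (SE 0.29, adjusted p = 0.0392). Fgf21 was above background on 1 of 4 arrays at 600 mm3, so that its fall includes values below detection. The call of Fgf21 was lost under quantile scaling, in the deposited table and with no filter. Nkd1, a Wnt antagonist, fell by 1.25 (SE 0.19, adjusted p = 0.0348; second probe -0.61, not called), while Axin2, a widely used readout of Wnt signalling, differed by 0.05 (adjusted p = 0.969). Thbd, the anticoagulant thrombomodulin, fell by 1.52 (adjusted p = 0.048), and Cdh2, N-cadherin, by 1.08 (adjusted p = 0.0465; second probe -0.68, not called). The calls of Thbd and Cdh2 were lost under quantile scaling and with no filter, and that of Cdh2 with the mean of probes too. Nkd1 lost its call with the mean of probes and in a fit of stage alone, and Wnt11 and Il11 with no filter. In all 2 of 14 tested Wnt pathway genes and 1 of 14 ligands of the receptors that sunitinib inhibits were called, with medians of -1.29 and -0.17. These calls were all falls, beside 1.01% of all genes.

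Of 12 tested B and plasma cell genes 2 fell, beside 1.01% of all genes, and the median was -0.25. Jchain, the joining chain of secreted antibodies, stood at -2.30 and -0.24 with sunitinib and 2.00 and 1.66 with vehicle at day 9, and at -5.24 and -6.25 with sunitinib and -1.89 and -3.71 with vehicle at 600 mm3 (difference -4.55, SE 0.54, adjusted p = 0.0247). The difference was -4.63 with vehicle and -4.47 with sunitinib, from a higher start with vehicle, so that the stages overlap when arms are pooled. Ms4a1, the B cell antigen CD20, was above background on 3 of 4 day 9 arrays and on no 600 mm3 array, with means of -4.80 and -7.47 and a fall of at least 3.40-fold (adjusted p = 0.0496). Ms4a1 thus entered the test only through the stage where it is high. Its call was lost in all 8 fits with an array left out, and under normexp, quantile scaling, the deposited table, no filter and a fit of stage alone. Jchain was called in 4 of those 8 fits.

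Endothelial and macrophage lists gave no call between stages. Of 28 endothelial genes 23 differences were negative, with a median of -0.63, and Pecam1 differed by -0.55 (adjusted p = 0.318). The receptors that sunitinib inhibits were not called either: Kdr and Flt1, which encode VEGF receptors, differed by -0.17 and -0.77, Pdgfrb by -1.19, Kit by -0.45 and Csf1r by -0.04 (adjusted p from 0.165 to 0.953). The sign of Csf1r turns under quantile scaling and in the deposited table. Of 16 macrophage and monocyte genes 13 differences were negative, with a median of -0.25. Eosinophil, lymphatic endothelial and adipocyte lists had medians of -1.46, -2.41 and -1.53 over 8, 4 and 14 tested genes and no call.

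**Figure D2:**
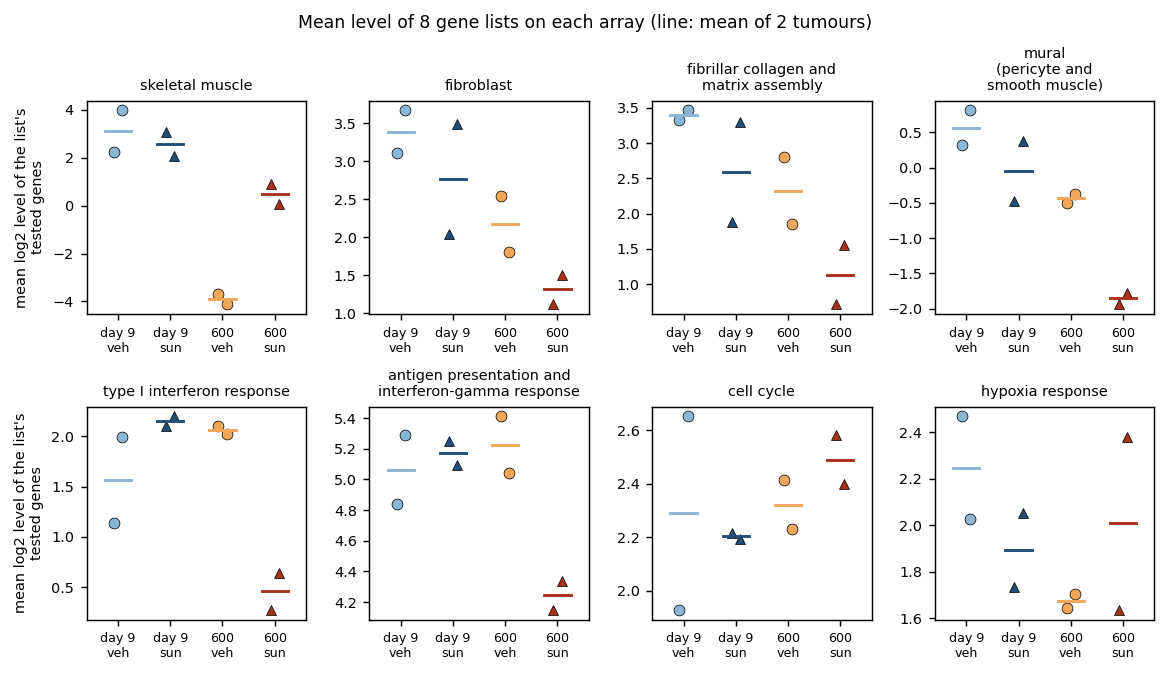
Mean level (log2 signal minus the array's 75th percentile) of 8 gene lists on each array, 1 point per array, grouped by stage and treatment. The skeletal muscle list is lowest on the 600 mm3 vehicle arrays (-3.69 and -4.11), the type I interferon list is lowest on the 600 mm3 sunitinib arrays (0.27 and 0.64), and cell cycle levels overlap between stages.

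The genes that rose were also described by their position. Genes were placed in RefSeq order of build GRCm38.p6, after the values had been seen, and what follows is a description. Chromosome 9 held 17 of the 111 genes that rose (1.73% of 980 tested), against at most 1.2% on any other chromosome. On other measures chromosome 13 stood above it, with 18.4% against 16.9% of genes higher without overlap between stages and a median difference of 0.23 against 0.20, though 4 of its genes rose. In 14659 windows of 25 neighbouring genes detected on all 8 arrays, 12989 windows held no gene that rose, 1375 held 1 and 239 held 2, and all 56 windows with 3 or more lay on chromosome 9. Each of 3 overlapping windows held 7 genes that rose, with medians of 0.84, 0.73 and 0.68, and the one with the highest median, from Arhgap32 to Ccdc15, is described here. Of these 7, Arhgap32, a GTPase activating protein, rose by 1.38, Dcps, the scavenger decapping enzyme, by 0.89, Tirap, a Toll-like receptor adaptor, by 0.90, Srpr, the signal recognition particle receptor, by 0.90, the pseudouridine synthases Rpusd4 and Pus3 by 1.05 and 1.09, and Tmem218 by 1.42. Differences were positive for 20 of the window's 25 genes. They were positive for 576 of the other 829 genes of the chromosome and for 8302 of 14285 genes elsewhere. In both arms they were positive for 19, 400 and 4751 of these genes, and the medians were 0.84, 0.19 and 0.07. The window was picked by its rises, so that its counts and median follow in part from that choice. Over all 28 tested genes between the ends of the window, which adds those not detected on every array, the median was 0.72 and 1 gene fell, Pknox2, a homeodomain protein, by 3.40 (adjusted p = 0.0446).

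The mean level of the window was -0.20 and -0.43 with sunitinib and -0.54 and -0.41 with vehicle at day 9. At 600 mm3 it was 0.20 and 0.10 with sunitinib and 0.08 and -0.00 with vehicle, without overlap between stages. This order too follows in part from the choice of the window. Dcps stood at 2.56 and 2.74 with sunitinib and 2.63 and 2.67 with vehicle at day 9, and at 3.65 and 3.79 with sunitinib and 3.29 and 3.44 with vehicle at 600 mm3. The window's median lay between 0.57 and 0.85 under the other scalings, which called 5 to 10 of its genes. With 1 array left out the median lay between 0.73 and 0.88 but at most 1 gene was called.

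**Figure D3:**
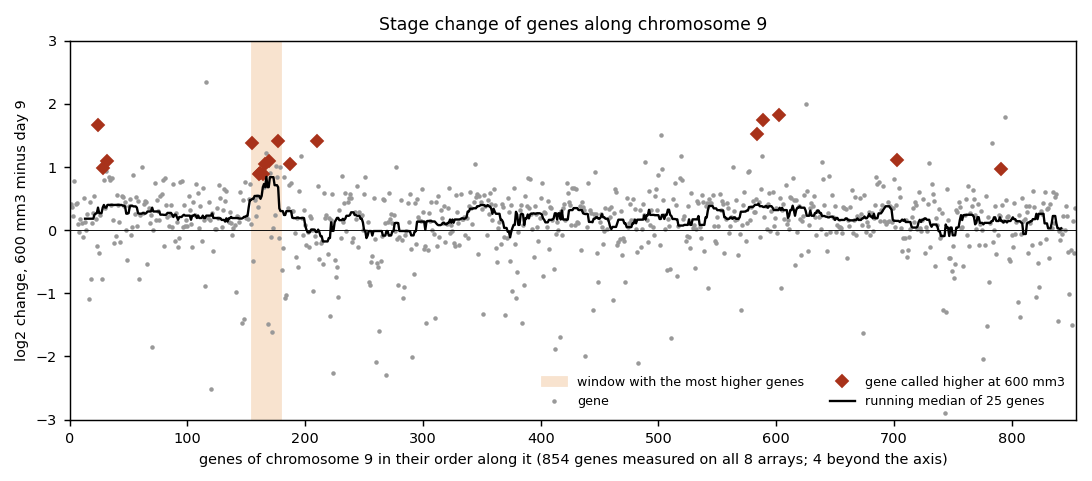
Stage difference (log2, 600 mm3 minus day 9) of 854 chromosome 9 genes detected on all 8 arrays, in gene order, with called genes and the running median marked. The window from Arhgap32 to Ccdc15 has a median of 0.84 against 0.19 for the other genes of the chromosome; 4 genes lie beyond the axis limit of 3.

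In the vehicle arm 291 genes changed (1.67%), of which 67 rose (0.384%) and 224 fell (1.28%). In the sunitinib arm 147 changed (0.843%), of which 64 rose (0.367%) and 83 fell (0.476%). Each arm compares 2 tumours with 2, with the spread taken from all 8 arrays. The arms have 24 called genes in common, 8.25% of the vehicle calls and 16.3% of the sunitinib calls, of which 14 rose and 6 fell in both. Fitted alone, the vehicle arm had 26 rises and 155 falls and the sunitinib arm 0 and 0. Left-out arrays moved these counts further: the vehicle arm had 9 rises and 73 falls without 600 mm3 vehicle mouse 3 and 13 and 77 without vehicle mouse 4, and 34 and 96 without day 9 vehicle mouse 2. The sunitinib arm had 0 and 0 without 600 mm3 sunitinib mouse 4, 4 and 5 without sunitinib mouse 3, 1 and 0 without day 9 sunitinib mouse 2, and 2 and 0 without either 600 mm3 vehicle mouse. It had 86 and 237 without day 9 sunitinib mouse 1, and 122 and 221 without either day 9 vehicle mouse.

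In the vehicle arm the leading rises beside Hormad1, Zfp979 and Acot1 were Tfap2c and Lpar3. The vehicle call of Zfp979 was lost with no filter, with the mean of probes and with the arm fitted alone. Tfap2c, the AP-2 gamma transcription factor of mammary and trophoblast cells, went from -5.01 and -5.08 to -0.71 and -0.62 (difference 4.38, SE 0.68, adjusted p = 0.0299), and differed by 0.93 in the sunitinib arm. Lpar3, a lysophosphatidic acid receptor, was above background only on the 600 mm3 vehicle arrays (-1.96 and -3.98) and rose at least 8.68-fold from day 9 levels of -7.24 and -7.43. Lpar3 thus entered the test only through the group where it is high. Its call was lost under normexp, in the deposited table and with the arm fitted alone. The arms were not shown to differ in Tfap2c (adjusted p = 0.204), and Lpar3 was below background on the sunitinib arrays of both stages.

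The leading falls of the vehicle arm were all muscle genes: Myh4, a fast myosin heavy chain, Ttn, titin, Sln, the sarcolipin regulator of the calcium pump, Myot, myotilin, and Trim63, the muscle ubiquitin ligase MuRF1. Myh4 went from 3.77 and 6.38 to -7.13 and -8.92, a fall of at least 3903-fold, and Trim63 from 1.14 and 2.02 to -9.18 and -7.81, a fall of at least 345-fold. At 600 mm3 in this arm Sln was above background on 1 array and the other 4 genes on none. Of the 15 muscle list genes 13 fell in the vehicle arm, beside 1.28% of all genes, with a median of -7.35. In the sunitinib arm 1 fell, beside 0.476% of all genes, with a median of -1.99. The vehicle median was -5.87 in the deposited table, -6.03 under normexp and between -8.26 and -6.03 with 1 array left out, the last without day 9 vehicle mouse 2. The sunitinib count was between 0 and 2 with 1 array left out. The vehicle count was 9 without day 9 vehicle mouse 2, 8 without 600 mm3 vehicle mouse 3 and 7 without vehicle mouse 4. In the vehicle arm these 5 leading genes were called in all 8 fits with an array left out.

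The stage change differed between arms for 38 genes (0.218%), more positive with sunitinib for 30 (0.172%) and more negative for 8 (0.0459%). Muscle genes were the leading positive ones. Trim63 was at 0.00 and -0.20 at day 9 and 1.12 and -0.11 at 600 mm3 with sunitinib, against the fall in vehicle tumours given above, a difference between arms of 10.68 (SE 0.82, adjusted p = 0.0163; second probe 9.56, also called). Ttn followed at 8.67 (adjusted p = 0.0369), Myot at 8.58, Art1, a muscle ADP-ribosyltransferase, at 8.05 and Sln at 7.75 (adjusted p = 0.0195 for each of these 3). The call of Ttn was lost under normexp, in the deposited table, with no filter and with the mean of probes, and those of Myot and Art1 under normexp and in the deposited table. Of the 10 genes named for this difference, in either direction, 0 were called by limma in all 8 fits with an array left out; Trim63 and Cd72 were called in 4 of the 8 and Sftpc in 0. Because the 600 mm3 vehicle values of Trim63, Ttn, Myot and Art1 were below detection, their differences between arms are measured against that floor. In the muscle list 3 of 15 genes were called for this difference, beside 0.172% of all genes more positive with sunitinib: Myh2 at 5.23, Ttn and Acta1, skeletal actin, at 6.27. Des, desmin, of the mural list, chosen after its value was seen, was called at 5.88 and is a muscle gene too.

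The leading negative ones rose with vehicle or fell with sunitinib. Cd72, an inhibitory co-receptor of B cells that macrophages also express, stood at 0.19 and 0.64 at day 9 and 2.39 and 2.26 at 600 mm3 with vehicle. With sunitinib it stood at 0.75 and 1.62 and then at -2.25 and -2.28, so that the arms moved in opposite directions (difference between arms -5.37, SE 0.45, adjusted p = 0.0189; second probe -5.67, also called). Crym, a thyroid hormone binding crystallin, went from -1.58 and -2.48 to 0.17 and 0.13 with vehicle and from -1.79 and -1.21 to -3.16 and -3.67 with sunitinib (difference -4.09, adjusted p = 0.0499). Sftpc, a lung surfactant protein, rose with vehicle by 3.76 and differed by -1.05 with sunitinib (difference -4.81, adjusted p = 0.0369). Grhl1, an epithelial transcription factor, fell with sunitinib by 2.59 and differed by 1.03 with vehicle (difference -3.62, adjusted p = 0.0337). Btn2a2, a butyrophilin that restrains T cells, was above background only on the day 9 sunitinib and 600 mm3 vehicle arrays (difference -4.58, adjusted p = 0.0263), and Defa29, a defensin, only on the day 9 vehicle and 600 mm3 sunitinib arrays (difference 5.84, adjusted p = 0.0111), each at levels of -5.47 to -4.35 where detected. Btn2a2 and Defa29 thus entered the test only through the groups where they are high, and their differences include values below detection. The call of Btn2a2 was lost under normexp and in the deposited table. Left-out arrays changed these counts, to 1 and 1 without day 9 sunitinib mouse 1, 5 and 1 without sunitinib mouse 2, and 41 and 56 without day 9 vehicle mouse 2. Without a 600 mm3 array they were 2 and 1 for sunitinib mouse 3, 10 and 0 for sunitinib mouse 4, 2 and 0 for vehicle mouse 3 and 3 and 1 for vehicle mouse 4. Without day 9 vehicle mouse 1 they were 32 and 4.

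**Figure D4:**
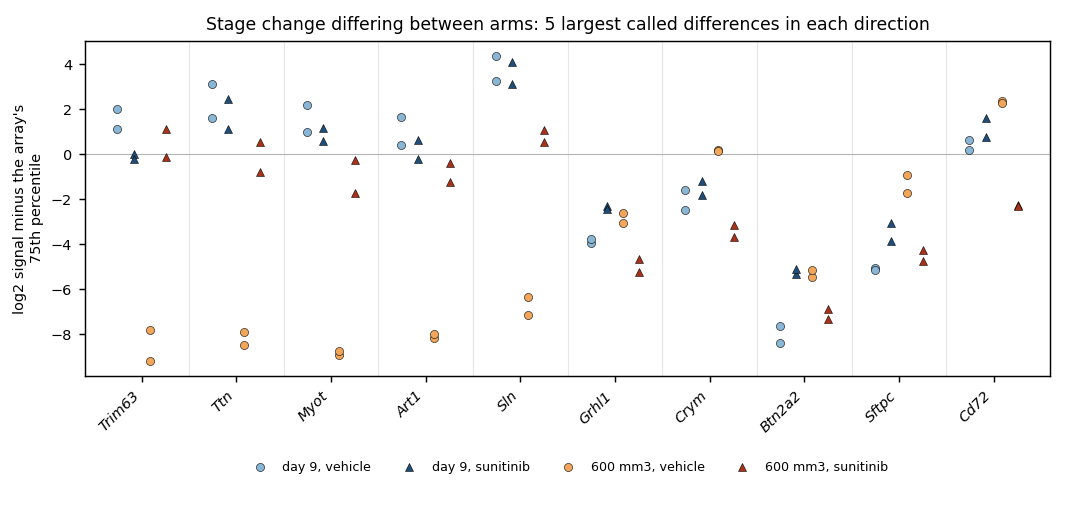
Levels (log2 signal minus the array's 75th percentile) of the 5 genes with the largest called difference of the stage change between arms in each direction, 1 point per array, for day 9 and 600 mm3 tumours of each treatment. Trim63, Ttn, Myot, Art1 and Sln are lowest on the 600 mm3 vehicle arrays, and Cd72 rises with vehicle and falls with sunitinib.

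In the sunitinib arm the leading rises beside Hormad1, Zfp979 and Acot1 included Defa29, of low signal. The sunitinib call of Zfp979 was lost under quantile and median scaling, with no filter and with the arm fitted alone. Defa29 went from -8.04 and -8.20 to -4.64 and -4.35, a rise of at least 3.11-fold, and was not above background on the day 9 sunitinib arrays. Its leading falls included stromal and lymphoid genes. Lrrc15, a membrane protein of activated fibroblasts, went from 2.10 and 3.95 to -1.80 and -1.22 (difference -4.54, SE 0.70, adjusted p = 0.0476), and in vehicle tumours from 3.02 and 3.62 to 3.86 and 2.36. Cnn1, calponin 1 of smooth muscle, went from -0.35 and 1.14 to -4.11 and -3.63 (difference -4.27, adjusted p = 0.0337), Meg3, an imprinted non-coding RNA, fell by 4.53 (SE 0.41, adjusted p = 0.025), Klrh1, a lectin-like receptor of natural killer cells, by 5.11 (adjusted p = 0.0476; second probe -1.65) and Atp1b2, a sodium pump subunit, by 3.83 (adjusted p = 0.0457). None of these 5 was called for a difference between arms (adjusted p from 0.131 to 0.444). All 5 sunitinib calls were lost with the arm fitted alone. That of Klrh1 was also lost under quantile and median scaling, with no filter and with the mean of probes. Lrrc15 also lost its call under quantile and median scaling and with no filter, Cnn1 with no filter, and Atp1b2 under normexp and with no filter. Of 13 mural genes, with a median of -1.84, 3 fell in the sunitinib arm, beside 0.476% of all genes. The 3 were Cnn1, Tagln by 3.27 and Abcc9 by 2.59, the last 2 named after their values were seen. That count was 0 without day 9 sunitinib mouse 2 or any 600 mm3 array and 5 without day 9 sunitinib mouse 1. The median was -1.02 without day 9 sunitinib mouse 2, -2.48 without mouse 1 and -1.20 in the deposited table.

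Genes of the type I interferon response were lower at 600 mm3 in the sunitinib arm. These genes are switched on by interferon-activated transcription factors that bind a paired GAAA motif in their promoters. The motif, read as GAAA, any 2 bases and GAAA on either strand, was found in the 300 bases around the start (250 before and 50 after) of 10 of the 15 list genes with a promoter in the RefSeq table of build GRCm38.p6 (66.7%), against 943 of 27025 promoters in all (3.49%). It was found in 3 of 14 genes of the antigen presentation and interferon-gamma response list (21.4%) and in 0 of 12 muscle genes. The stretches below are shown because they carry that motif, in capitals, in 4 genes of the list, of which Rsad2 and Stat2 were called in the sunitinib arm and Isg15 and Ifit1 were not. The other called genes with a promoter in the table, Ifi44 and Oasl1, hold no match in this window. Rsad2 is at chr12:26456523-26456612 on the minus strand, Stat2 at chr10:128270248-128270325 on the plus strand, Isg15 at chr4:156200835-156200936 on the minus strand and Ifit1 at chr19:34640745-34640853 on the plus strand, each read 5′ to 3′ on the strand of its gene. In Isg15 overlapping matches form 1 run of capitals. A match is a description of the letters and not a measured binding site.
Rsad2: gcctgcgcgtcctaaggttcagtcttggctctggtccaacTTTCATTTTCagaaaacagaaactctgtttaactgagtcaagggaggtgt
Stat2: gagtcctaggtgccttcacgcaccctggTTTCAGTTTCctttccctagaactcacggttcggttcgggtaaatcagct
Isg15: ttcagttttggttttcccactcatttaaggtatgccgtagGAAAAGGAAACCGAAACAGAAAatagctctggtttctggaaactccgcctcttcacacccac
Ifit1: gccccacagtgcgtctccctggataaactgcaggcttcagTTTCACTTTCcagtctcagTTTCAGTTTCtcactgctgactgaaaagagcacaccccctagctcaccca

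Of 18 tested interferon genes 5 fell in the sunitinib arm, beside 0.476% of all genes. They were Oas2, an antiviral oligoadenylate synthetase, by 3.56, Rsad2, the antiviral enzyme viperin, by 2.56, Ifi44 by 2.30, Oasl1 by 2.00 and Stat2 by 1.87 (adjusted p from 0.0451 to 0.0473). These 5 were named after their values were seen. Isg15 and Ifit1, whose promoters are printed beside those of Rsad2 and Stat2, differed by -1.82 and -1.60 without a call. All 18 genes had both 600 mm3 sunitinib arrays below both day 9 sunitinib arrays, with a median of -1.79, where 23.3% of all genes have this order. In the vehicle arm 0 of 18 were called, beside 1.67% of all genes. There 6 of 18 were higher and 0 of 18 lower without overlap (background without overlap: 29.4% of genes higher, 19.8% lower, 49.2% either). In that arm 17 differences were positive and the median was 0.45. The mean level of the list was 2.10 and 2.20 with sunitinib and 1.14 and 1.99 with vehicle at day 9, then 0.27 and 0.64 with sunitinib and 2.11 and 2.02 with vehicle at 600 mm3. The 600 mm3 sunitinib arrays are thus the lowest of the 8, and the vehicle arrays at 600 mm3 lie with the day 9 sunitinib arrays.

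A difference between the arms was not shown for these genes: 0 of 18 passed that test in limma, with adjusted p from 0.0718 to 0.38 and a median difference between arms of -2.16. The 5 calls fell to 2 without day 9 sunitinib mouse 1 and to 0 without sunitinib mouse 2 or any 600 mm3 array, and rose to 8 without either day 9 vehicle mouse. The median of the sunitinib arm stayed between -1.90 and -1.40 in all those fits and between -1.86 and -1.58 under the other scalings. The vehicle median lay between -0.01 and 0.92 with 1 array left out. Other lists had lower levels at 600 mm3 in the sunitinib arm too, and their part in the interferon values was not tested: the antigen presentation list had a median of -1.0 with 2 calls, the class II genes H2-Ab1 at -1.38 and H2-Eb1 at -1.74, the endothelial list a median of -1.27 with no call, T and NK cell genes -1.31 with no call, and macrophage genes -0.91 with 1 call, Ms4a7 at -2.56. The mean level of the macrophage list was 2.56 and 3.43 at day 9 and 2.49 and 1.72 at 600 mm3 with sunitinib, and 3.29 and 3.41 and then 3.59 and 3.44 with vehicle. The hypoxia list had a median of 0.43 in the sunitinib arm and -0.62 in the vehicle arm.

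**Figure D5:**
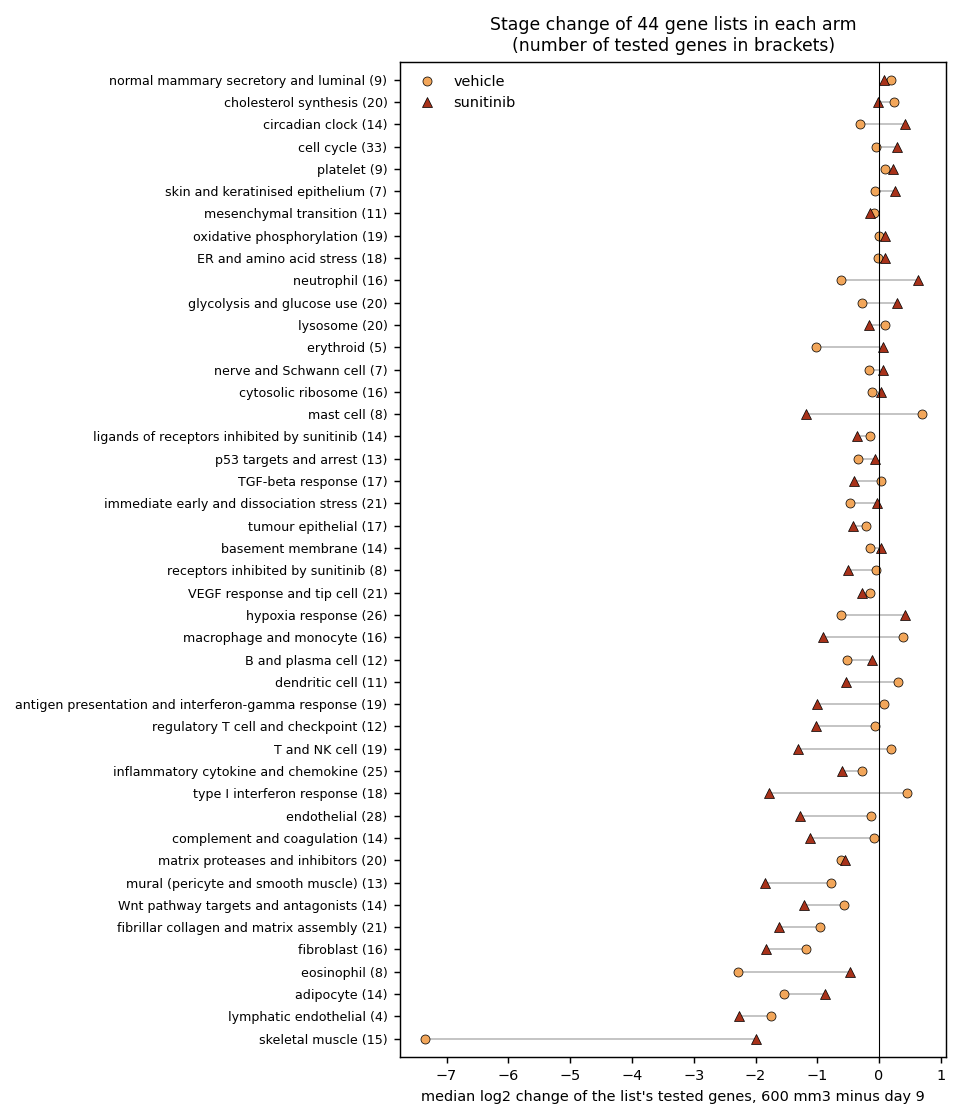
Median stage difference (log2, 600 mm3 minus day 9) of each of 44 gene lists in the vehicle arm and in the sunitinib arm, with the number of genes tested in brackets. Skeletal muscle is the lowest list in the vehicle arm at -7.35 and -1.99 in the sunitinib arm, and the type I interferon list lies at 0.45 and -1.79.

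Treatment itself, averaged over stages in the same fit, changed 0 of 17442 genes (0%) by limma. The smallest adjusted p was 0.603, and 1236 genes had an unadjusted p under 0.05. Without day 9 sunitinib mouse 2, 66 genes were lower with sunitinib.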

How the data were processed

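RNA of bulk 4T1-Luc tumours was hybridised to single-colour Agilent mouse arrays, 1 per tumour, and the 8 arrays of day 9 and 600 mm3 tumours entered the fits. Per the file headers, the deposited processed, median and background intensity values come from Agilent Feature Extraction 10.7.3.1; the submitters' processing notes give 9.1. The authors also deposited intensity values of all samples on a linear scale, normalised in R per the series' design text, by a method not given in the sources used here. They served as an alternative. Their medians on these arrays were 123 to 125, they correlated at 0.97 to 0.98 with the same array's scanner values, and their centring stays unknown.

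From 59305 spots 55681 probes were kept, and 26582 were named through RefSeq accessions to 20145 genes (GRCm38.p6). The other 29099 were tested apart. The brightest probe stood for a gene, tested when well above background on at least 2 of the 8 arrays. No spot was saturated. Signals were scaled to each array's 75th percentile on a log2 scale and tested with limma 3.58.1 (R 4.3.3), with stage and treatment as terms, or with group means for the arms and their difference, with residual degrees of freedom of 5 and 4. Adjusted p values are Benjamini-Hochberg over all genes tested, at 0.05. Bounds set a group with no array well above background to the lowest signal called so on each of its arrays. Mouse numbers in the titles mark separate animals.

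Genes named were the 12 largest rises and falls without overlap between stages and detected on the higher stage, up to 3 called members per list, 5 per direction in each arm and in the difference between arms, and 10 fixed genes; a few that the rule names are not reported here. Of 713 entries in 44 lists, 682 were tested. The members and lists were chosen with earlier results of these data known. Tested on simulated data of 17442 genes, the stage fit recovered 46%, 84%, 96% and 98% of genes changed by 1, 2, 3 and 4 log2 units, with 7 false calls of 169. The simulated arrays had independent noise with each gene's spread within groups, no treatment effect and no difference between arms. These rates therefore do not carry over to the real arrays, where the arms can differ. The normexp alternative used median in place of mean signals, since the files hold no mean signal. Python 3.11.15 with matplotlib 3.10.9 made the plots.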

Additional observations from a re-analysis of the deposited data

Results flagged for a closer look

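On 4 of 234 sets of 4 arrays, 1 array lay farther from the rest than Dixon's critical value for the gap over the range; chance gives about 1 in 20. The macrophage and monocyte list had a mean level of 2.555 on day 9 sunitinib mouse 1 and 3.292 to 3.428 on the other day 9 arrays. The fibrillar collagen and matrix assembly list stood at 1.876 on the same array and at 3.301 to 3.463 on the others. The hypoxia response list stood at 2.381 on 600 mm3 sunitinib mouse 4 and at 1.636 to 1.705 on the other 600 mm3 arrays. The oxidative phosphorylation list stood at 4.342 on 600 mm3 vehicle mouse 3 and at 4.61 to 4.631 on the others.

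The named genes whose stage change differed between arms (sunitinib minus vehicle, limma) were the muscle genes Trim63 at 10.68, Ttn at 8.665, Myot at 8.578, Art1 at 8.05, Sln at 7.753 and Myh2 at 5.232, the defensin Defa29 at 5.844, and, in the other direction, Cd72 at -5.37, Sftpc at -4.809, Btn2a2 at -4.577, Crym at -4.089 and Grhl1 at -3.617. Defa29 and Btn2a2 entered the test only through the groups where they are high, and their differences include values below detection. In Cd72 every vehicle tumour at 600 mm3 was above, and every sunitinib tumour below, the day 9 tumours of its arm.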

How the results depend on the processing

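No paired analysis was possible because the mouse numbers of day 9 (1 and 2) and 600 mm3 (3 and 4) tumours are not shared. No called value changed sign under the settings tried, and the causes of the shifts below were not tested. Stage calls were 93 higher and 283 lower with normexp, 44 and 67 with no filter (more probes tested), and 280 and 487 with group means, which kept all 288. With 1 array left out, the lowest and highest counts were 2 and 88 higher and 1 and 130 lower for stage, 9 and 68 and then 73 and 258 for the vehicle arm, 0 and 122 and then 0 and 237 for the sunitinib arm, 1 and 41 and then 0 and 56 for the difference between arms, 0 and 66 lower for treatment, and, for unnamed probes (58 higher and 68 lower), 3 and 47 and then 1 and 95. Sunitinib arm counts, higher and lower, were 38 higher with normexp, 32 and 55 with quantile scaling, 29 and 53 with median scaling, 108 and 259 in the deposited table, 173 and 258 with detection on all 8 arrays, 112 and 192 on at least 4, 6 and 5 with no filter, 129 and 273 with a trended robust prior, and 0 and 0 fitted alone (fewer samples). The vehicle arm fitted alone had 26 higher. The difference between arms had 5 lower with quantile scaling, 17 higher in the deposited table, 13 higher with detection on all 8 arrays, 14 and 2 with no filter and 20 lower with the trended robust prior. Unnamed probes gave 101 and 265 with normexp, 34 and 33 with quantile scaling and 31 and 31 in the deposited table. Low signal limits the genes given as bounds.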

Other observations

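Probes without a gene name, 21502 of them tested and adjusted apart, gave 58 rises (0.27%) and 68 falls (0.316%) between stages. Probes designed on genomic intervals gave 28 rises and 24 falls among 11918, probes with accessions other than RefSeq 23 and 41 among 8442, and probes with RefSeq accessions that matched no gene name 7 and 3 among 1142.

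Vehicle tumours of 1300 mm3 lie on other slides, so that size and slide cannot be told apart, and their levels are set beside those above with no comparison. In 4 such bulk tumours Hormad1 ranged from -1.42 to -0.33 and Acot1 from 1.22 to 1.64. Bspry ranged from -0.06 to 1.00 and Zfp979 from -2.11 to -0.29. Gzmg ranged from -3.13 to 0.27 and Gzmf from -4.95 to -1.10. Cdkn1a ranged from 1.86 to 3.54, Il11 from -0.67 to 3.61 and Il1a from -1.21 to 1.66. Myh2 ranged from -4.94 to -1.37 and Ckmt2 was above background on none of the 4. Stc1 ranged from -2.74 to -0.71. The mean level of the chromosome 9 window was 0.00, 0.01, -0.04 and -0.17.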
